A study of Mus musculus with 5 samples.

Results

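The genes described here copy the genome: 48 genes of origin licensing, the replication fork and deoxynucleotide supply, taken from the table by symbol. The table listed all 48 among its 22815 gene symbols, and 46 of them reached 1 FPKM in at least 1 library and were tested. FPKM scales fragments by the length of the transcript and the depth of the library, so levels can be set beside each other between genes as a rough guide. In RNA of mixed peritoneal cells, 26 of the 48 stood lowest in both libraries of wild-type mice given pristane. In both libraries labelled Irf8KO, 29 stood highest. Each order was found in 12.9% of genes above 0 in any library. With sums of FPKM set equal between libraries, each held in 22 of the 48, and the share of all genes was not counted at that scaling.

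A cell licenses its origins before S phase, when the origin recognition complex, Cdc6 and Cdt1 load rings of the MCM helicase onto DNA, and geminin then blocks further loading. Cdc45 and the GINS complex turn the loaded ring into a moving helicase, behind which primase and the DNA polymerases work on a sliding clamp. Ribonucleotide reductase, thymidylate synthase, thymidine kinase and dUTPase feed the fork with building blocks. Many of these genes are transcribed under the E2F factors as a cell enters the cycle. In the peritoneum, resident macrophages are known to renew by dividing in place, while granulocytes divide as precursors in the marrow.

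Peritoneal cells were lavaged from 8-week-old mice, and RNA of a mixed cell suspension was sequenced by Smart-seq2, a method for little material. The 3 groups were wild-type (WT) C57BL/6 mice that received phosphate-buffered saline (PBS, 1 library), WT mice given pristane (2 libraries), and pristane-treated mice labelled Irf8KO, which the study calls Irf8-deficient (2 libraries). Pristane is a hydrocarbon oil that inflames the peritoneum, and Irf8 is a transcription factor that monocytes and dendritic cells need and that restrains granulocytes. The Irf8 allele, the background strain of these mice, the time after injection and whether a library came from 1 animal or a pool are not stated. No Irf8KO library with PBS was among the 5, so genotype was compared in pristane-treated mice only. Nothing in the labels tells if replicates were separate animals, and p-values therefore speak of the spread between these libraries, which may be technical. With PBS sequenced only 1 time, its spread was taken to be that of the pristane pairs.

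Irf8 stood at 32.4 FPKM with PBS, 63.3 and 48.7 in WT pristane and 120.5 and 59.4 in the libraries labelled Irf8KO, so the gene named in the genotype was not lower there. Transcripts of the sex chromosomes differed within the WT libraries and between groups. The Y-linked Eif2s3y was listed at 0 with PBS and in WT pristane 2 and at 12.9 to 25.6 FPKM in the other 3. The X-linked Xist stood at 43.5 FPKM with PBS, 0 and 8.81 in WT pristane, and 0.0148 and 0.0145 in the Irf8KO libraries. Sex was therefore not balanced between the groups, and its part was not tested. Depth, read from the steps between low values, came to between 2294000 and 4878000 fragments, at which 1 fragment on a transcript of 1000 bases was worth 0.205 to 0.436 FPKM. Cell markers differed widely between the groups. Counts of higher or lower markers compare both Irf8KO with both WT pristane libraries. Of genes above 0 in any library, 22.0% were higher and 22.7% lower in this way. Summed FPKM of 8 large peritoneal macrophage markers was 1932 with PBS, 123 and 169 in WT pristane and 1249 and 1938 in the Irf8KO libraries, with 6 of 8 higher in both Irf8KO than in both WT pristane libraries and 1 lower. The sum of 8 granulocyte precursor markers was 63.2, 35.8 and 237, and 1369 and 745 (6 of 8 higher, 0 lower), with Elane, Ms4a3, Ltf and Camp at 0 with PBS. Prtn3 alone held 62.0 FPKM of the PBS sum. In the Irf8KO libraries Ngp held 633 and 292, Camp 287 and 116, and Ltf 235 and 146. Elane and Ctsg overlapped between the pristane groups. The sum of 6 neutrophil markers was 154, then 16169 and 14279, then 45250 and 23166 (4 of 6 higher). B cell markers summed to 2338, then 36.0 and 7.90, then 180 and 95.1 (4 of 5 higher). Inflammatory monocyte markers summed to 162, then 693 and 5199, then 500 and 382, with 5 of 7 lower and 1 higher. Chil3 alone held 4000 FPKM of the sum in WT pristane 2. T cell markers summed to 96.6, then 78.7 and 57.8, then 32.6 and 23.6, and natural killer cell markers to 3.12, then 89.2 and 77.6, then 33.0 and 23.9, each with 5 of 5 lower in both Irf8KO libraries. Their part in the results on replication genes was not tested, and in such mixed RNA more cells of a type and more RNA per cell cannot be told apart.

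The promoters of a few members show the sequence that E2F factors are known to read. RefSeq promoters (GRCm38.p6, 250 bases before to 50 after each start) were found for 39 of the 48 genes. They were searched on both strands for 4 spellings of the E2F site, TTTGGCGC, TTTCCCGC, TTTCGCGC and TTTGCCGC, and for CCAAT, the box read by NF-Y. An E2F spelling was present in 14 of 39 members (35.9%), against 2.6% of all 27025 genes with a promoter and 4.58% of the 8433 of them that were tested. CCAAT was present in 23 of 39 (59.0%), against 41.1% and 42.8%, and the median GC content was 62.1%, against 52.8% and 60.5%. Stretches before the start are shown for Cdc6, Mcm5, Mcm6 and Uhrf1, which hold an E2F spelling, and for Rrm1 and Rrm2, which hold CCAAT without one and belong to the members with the widest group differences. Matches are in capitals, written 5′ to 3′ along the gene's strand, with some capitals reading as the reverse complement of a spelling and with overlapping matches run together.
Cdc6 (chr11:98908003-98908030, plus strand): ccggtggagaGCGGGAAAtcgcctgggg
Mcm5 (chr8:75109346-75109501, plus strand): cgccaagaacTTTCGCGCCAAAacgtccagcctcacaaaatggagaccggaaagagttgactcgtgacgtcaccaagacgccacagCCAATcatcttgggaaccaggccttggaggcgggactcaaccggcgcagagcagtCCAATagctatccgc
Mcm6 (chr1:128359706-128359825, minus strand): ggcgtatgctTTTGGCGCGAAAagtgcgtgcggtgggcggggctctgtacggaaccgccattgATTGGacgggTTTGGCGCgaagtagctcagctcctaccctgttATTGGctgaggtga
Uhrf1 (chr17:56304118-56304220, plus strand, 1 of 2 starts): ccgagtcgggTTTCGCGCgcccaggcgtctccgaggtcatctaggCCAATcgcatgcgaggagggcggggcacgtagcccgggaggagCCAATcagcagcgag
Rrm1 (chr7:102441594-102441664, plus strand): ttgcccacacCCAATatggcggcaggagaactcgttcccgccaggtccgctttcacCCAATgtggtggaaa
Rrm2 (chr12:24708194-24708218, plus strand): tcagcggcgtCCAATgggaggcgag
In Mcm5 and Mcm6 an overlapping pair of spellings on opposite strands forms 1 run. The letters did not sort the members by their difference between pristane groups: the median log2 change was 0.71 over the 13 tested members with an E2F match and 0.71 over the 25 without. A match is a description of the letters only, and its absence in these windows says nothing of the factor.

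Irf8KO pristane against WT pristane compared the genotypes as labelled after the oil, and a difference in response cannot be told apart from one present before it. Both Irf8KO libraries stood above both WT pristane libraries in 40 of the 48 members (83.3%), against 22.0% of the 15245 genes above 0 in any library. The reverse was true of 0 of 48, against 22.7%. The overlapping members were Orc2, Orc3, Orc4, Gins3, Pcna, Fen1, Chaf1a and E2f1. The median log2 change, on the log2(FPKM + 1) scale, was 0.71 over the 46 tested members and 0.70 over all 48 without a filter, against -0.00 over the 11117 genes tested. No single member passed the test: 0 of 46 had an adjusted p under 0.05 (limma, adjusted over all genes tested), where 0 of 11117 genes passed in the higher direction and 0.0270% passed at all. At an unadjusted p under 0.05, 25 of 46 members were higher and 0 lower, against 10.5% and 10.1% of all genes. The log2 change was above 0 in 44 of 46, against 49.1%. Cdc6, Mcm10, Tyms and Pole reached 1 FPKM only in Irf8KO libraries and were tested because they were high there. Of these 4, all but Pole are among the 25, so these counts are a description and no support. Rrm2 and Tk1 passed under 2 other settings: a filter on a mean of at least 5 FPKM, where 1.78% of genes were called higher and 2.32% lower, and robust variance moderation (1.04% and 1.33%). Rrm2, Tk1, Gmnn and Rrm1 passed in the 4 pristane libraries with the filter set on those, chosen after seeing the data (1.98% and 2.15%). With sums of FPKM set equal between libraries, which shifted the median of all genes to -0.20, the members' median was 0.60, and both Irf8KO libraries stood above both WT pristane libraries in 34 of 48, against 15.0%. With these equal sums Cdt1, Mcm4, Gins2, Pold1, Rfc3 and Ccne1 overlapped too, and Orc2 was lower in both Irf8KO libraries. With median-ratio scaling the count was 39, against 22.2%, and of the 40 only Rfc3 overlapped. With 2 libraries against 2, an exact two-sided permutation test on a single gene cannot give a p below 0.333.

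**Figure D1:**
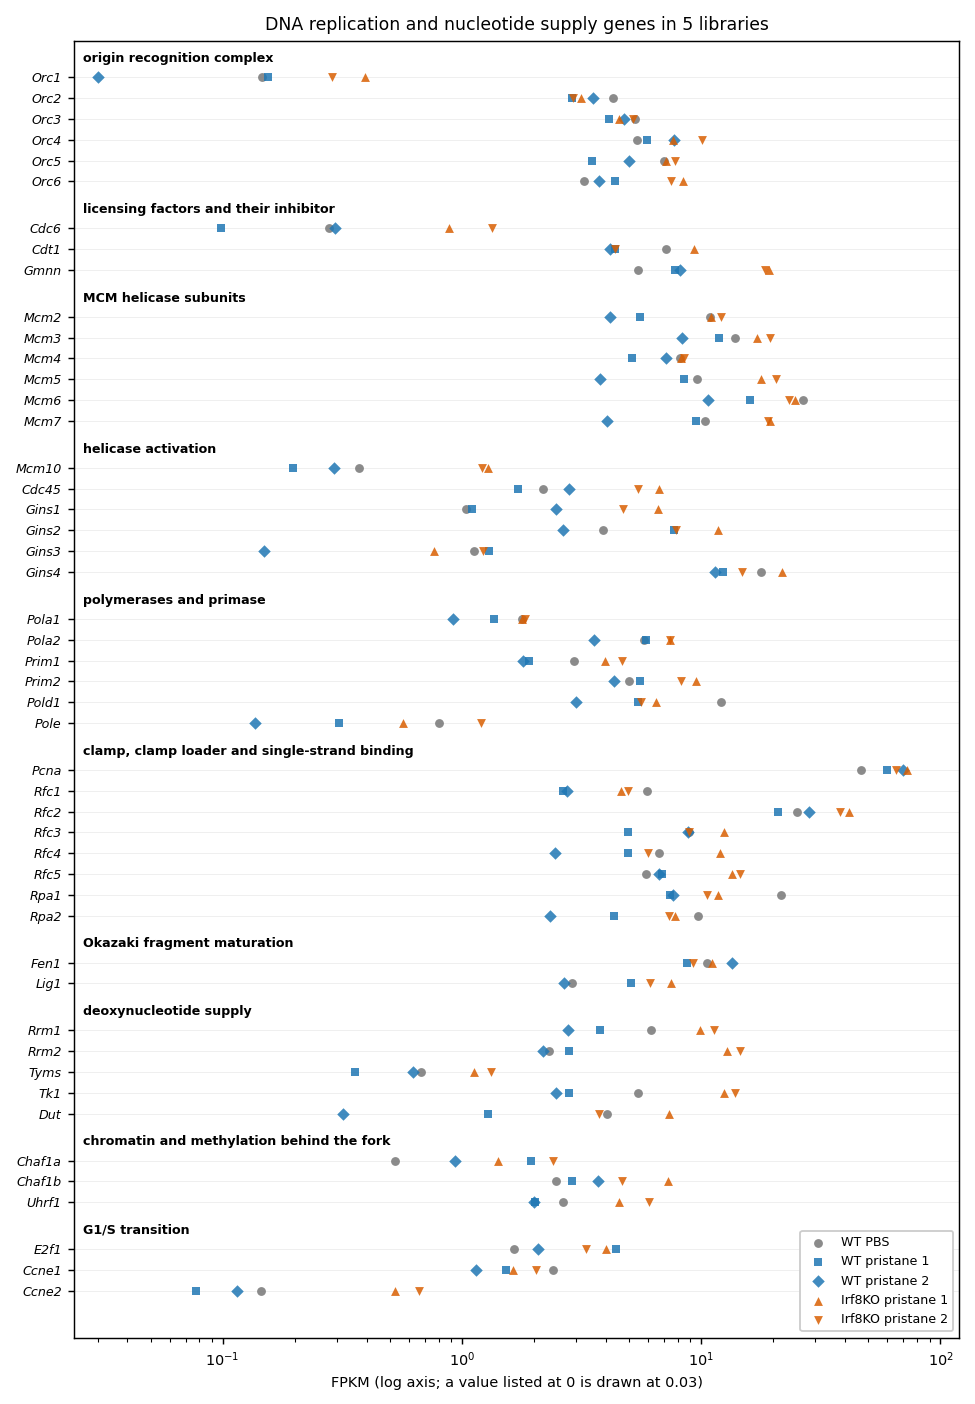
FPKM of each of the 48 genes on a log axis, grouped by role, with 1 marker per library (grey, WT PBS; blue, WT pristane; orange, Irf8KO pristane) and a value listed at 0 drawn at the left edge. The orange markers lie to the right of both blue ones in 40 of 48 genes.

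**Figure D2:**
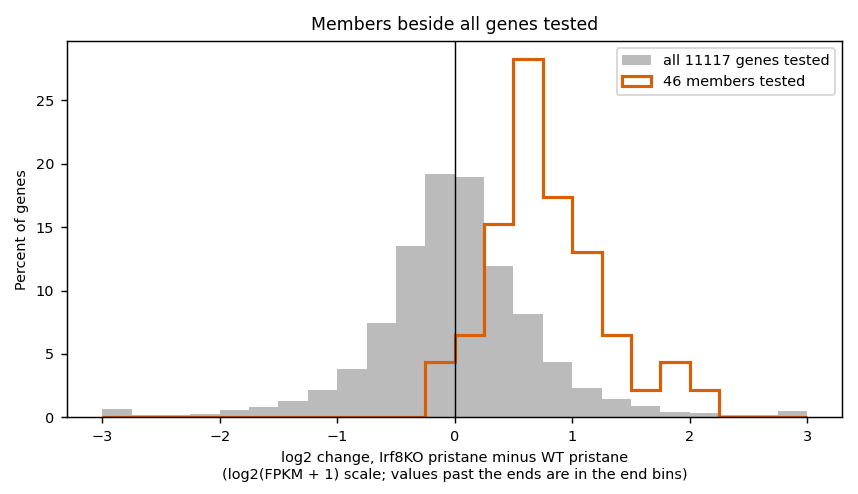
Percent of genes by log2 change, Irf8KO pristane minus WT pristane, in grey for the 11117 genes tested and in orange outline for the 46 tested members. Of the members 44 lie above 0, with a median of 0.71 against -0.00.

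The most abundant and the rarest members were much the same in every library. Pcna, the sliding clamp, had the highest FPKM in each, and Ccne2 or Orc1 the lowest. The median over the 48 genes was 5.35 FPKM with PBS, 4.33 and 2.90 in WT pristane, and 7.54 and 6.73 in the Irf8KO libraries. The pairs did not overlap, and the PBS library lay between them. Between replicates the median absolute log2 difference of the tested members was 0.33 in WT pristane and 0.18 in Irf8KO pristane, against 0.33 and 0.24 over all genes, so the WT pristane pair carried the wider spread. WT pristane 2 was the lower of that pair in 28 of 46 tested members.

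The origin recognition complex marks origins and is present in resting cells as well. Its subunits showed smaller differences than most roles, with 3 of 6 above WT pristane in both Irf8KO libraries and a median log2 change of 0.32 over 5 tested. Orc6, the subunit that joins the core complex loosely, stood at 3.25 FPKM with PBS, 4.37 and 3.74 in WT pristane, and 8.42 and 7.49 in the Irf8KO libraries. Both Irf8KO values exceeded the other 3, with a log2 change against WT pristane of 0.83 ± 0.20 (SE) and an adjusted p of 0.164. Orc5, a subunit of the ATPase core, stood at 7.005 FPKM with PBS, 3.49 and 5.01 in WT pristane, and 7.15 and 7.80 in the Irf8KO libraries (0.71 ± 0.24, adjusted p = 0.227). Here WT pristane was the low group, and the Irf8KO libraries lay just above the PBS value, though below it on average with equal sums of FPKM. Orc4, the most abundant subunit by mean FPKM, stood at 5.41 with PBS, 5.95 and 7.72 in WT pristane, and 7.61 and 10.04 in the Irf8KO libraries, and the pristane groups overlapped. Orc2 and Orc3 ran from 2.90 to 5.28 FPKM over all libraries with overlapping groups. Orc1, the subunit whose level cycles, was under 0.4 FPKM in all 5 libraries and listed at 0 in WT pristane 2, so it was not tested.

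Cdc6, Cdt1 and geminin had a median log2 change of 0.81, and all 3 stood higher in both Irf8KO libraries than in WT pristane. Gmnn encodes geminin, the inhibitor of Cdt1 that accumulates in S phase and in G2. It stood at 5.46 FPKM with PBS, 7.77 and 8.19 in WT pristane, and 19.2 and 18.4 in the Irf8KO libraries. The pairs were tight and far apart, with a log2 change of 1.14 ± 0.17 (adjusted p = 0.0981). Against the PBS library Gmnn rose by 1.62 ± 0.21 in the Irf8KO libraries (adjusted p = 0.0371). Gmnn and Rrm2 were the 2 of 46 members that passed as higher there (4.35%, against 3.81% of all genes tested). Cdc6, the ATPase that loads the MCM ring, was a rare transcript at 0.278 FPKM with PBS, 0.0987 and 0.294 in WT pristane, and 0.880 and 1.33 in the Irf8KO libraries. The Irf8KO values were the highest, but only 1 library reached 1 FPKM, and the log2 change of 0.81 ± 0.19 did not pass (adjusted p = 0.154). Cdt1, the loader that geminin blocks, stood at 7.14 FPKM with PBS, 4.36 and 4.15 in WT pristane, and 9.30 and 4.38 in the Irf8KO libraries. The groups did not overlap, but Irf8KO pristane 2 lay close to the WT pristane values, so the difference in means rested on Irf8KO pristane 1.

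The 6 MCM helicase subunits shared a pattern. In each of them both WT pristane libraries lay below the PBS library and below both Irf8KO libraries, an order found in 26 of the 48 members and in 12.9% of all genes. With equal sums of FPKM it was found in 5 of the 6, not in Mcm4, and in 22 of the 48. The share of all genes was not counted at that scaling. Summed over the ring, MCM transcripts came to 79.6 FPKM with PBS, 56.6 and 38.1 in WT pristane, and 98.1 and 103.1 in the Irf8KO libraries. The ring's subunits act in equal numbers, and their FPKM differed by 2.77 to 3.28 times between the highest and lowest within a library. Mcm6 had the highest FPKM in all 5 libraries, and Mcm4 the lowest in 4.

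Mcm5 stood at 9.59 FPKM with PBS, 8.46 and 3.79 in WT pristane, and 17.8 and 20.6 in the Irf8KO libraries. Its log2 change between pristane groups, 1.58 ± 0.39, was the largest of the ring but rested on an uneven WT pristane pair (adjusted p = 0.164). Without WT pristane 1 it was 2.07 and without WT pristane 2 it was 1.09. Mcm2 stood at 10.9 FPKM with PBS, 5.53 and 4.16 in WT pristane, and 11.01 and 12.2 in the Irf8KO libraries (1.11 ± 0.22, adjusted p = 0.129). The Irf8KO libraries were close to the PBS value, and the WT pristane libraries stood apart below. Mcm6 stood at 26.7 FPKM with PBS, 16.0 and 10.7 in WT pristane, and 24.6 and 23.4 in the Irf8KO libraries (0.83 ± 0.24, adjusted p = 0.195). It was the MCM subunit whose PBS value was the highest of the 5. Mcm3, Mcm4 and Mcm7 had log2 changes of 0.81, 0.40 and 1.47. Mcm7 overlaps the start of Ap4m1, and since no strand setting is stated, its fragments may include that gene's.

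Of the 6 helicase activation genes, 5 stood above WT pristane in both Irf8KO libraries, with a median log2 change of 0.89, while WT pristane lay below PBS as well in 2. Cdc45, which joins the ring when an origin fires, stood at 2.18 FPKM with PBS, 1.72 and 2.80 in WT pristane, and 6.67 and 5.45 in the Irf8KO libraries (1.13 ± 0.27, adjusted p = 0.157). The PBS value fell between the WT pristane values, and both Irf8KO values lay well above. Mcm10, a scaffold that activates the helicase, stood at 0.370 FPKM with PBS, 0.197 and 0.293 in WT pristane, and 1.28 and 1.21 in the Irf8KO libraries (0.85 ± 0.14, adjusted p = 0.109). It was detected at 1 FPKM or more in the Irf8KO libraries only, as were Cdc6, Tyms and Pole, so these 4 genes passed the filter through the group where they were high. Gins4, the most abundant GINS subunit, stood at 17.8 FPKM with PBS, 12.3 and 11.4 in WT pristane, and 21.8 and 14.7 in the Irf8KO libraries (0.56 ± 0.25, adjusted p = 0.308). Irf8KO pristane 2 lay below the PBS value. Gins1 (log2 change 1.28) and Gins2 (0.92) did not overlap between pristane groups, while Gins3, under 1.4 FPKM throughout, did.

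Primase and the replicative polymerases were higher in both Irf8KO than in both WT pristane libraries in 6 of 6 genes, with a median log2 change of 0.60. Prim1, the catalytic subunit of primase, stood at 2.93 FPKM with PBS, 1.91 and 1.80 in WT pristane, and 3.97 and 4.65 in the Irf8KO libraries (0.89 ± 0.20, adjusted p = 0.147). Its partner Prim2 stood at 4.99 FPKM with PBS, 5.56 and 4.32 in WT pristane, and 9.55 and 8.19 in the Irf8KO libraries (0.74 ± 0.22, adjusted p = 0.198). Both subunits showed the Irf8KO values above the other 3. Pold1, the catalytic subunit of the lagging-strand polymerase delta, differed from them in its PBS level, at 12.1 FPKM against 5.43 and 2.99 in WT pristane and 6.50 and 5.60 in the Irf8KO libraries. Every pristane library lay below PBS, and the log2 change against PBS was -1.37 ± 0.38 in WT (adjusted p = 0.0965) and -0.90 ± 0.38 in Irf8KO (adjusted p = 0.192). Pola1, Pola2 and Pole, the other polymerase subunits, had log2 changes of 0.40, 0.59 and 0.61 between pristane groups.

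The clamp itself stood apart from its loader. Pcna stood at 46.8 FPKM with PBS, 59.7 and 69.4 in WT pristane, and 72.2 and 65.0 in the Irf8KO libraries, and the pristane groups overlapped (log2 change 0.09 ± 0.17, adjusted p = 0.797, 95% interval -0.38 to 0.55), with a change of -0.14 when sums of FPKM were set equal. Pcna also works in DNA repair, and its annotated pseudogenes could share fragments with it. The subunits of replication factor C, which open the clamp and place it on DNA, did not overlap in 5 of 5, though Rfc3 overlapped under both other scalings. Rfc5 stood at 5.86 FPKM with PBS, 6.84 and 6.63 in WT pristane, and 13.4 and 14.5 in the Irf8KO libraries (0.95 ± 0.18, adjusted p = 0.122). Both pairs were tight, and PBS lay just below WT pristane. Rfc1 to Rfc4 had log2 changes from 0.59 to 1.08, the highest in Rfc4, where Irf8KO pristane 1 held about 12.0 FPKM and Irf8KO pristane 2 held 6.02.

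Rpa1 was the 1 member of 46 whose fall from PBS to WT pristane passed (2.17%, against 5.46% of all genes tested). Dut had a larger estimate, -1.54, that did not pass (adjusted p = 0.143). Rpa1 encodes the large subunit of replication protein A, which coats single-stranded DNA at forks and in repair. Rpa1 stood at 21.6 FPKM with PBS, 7.42 and 7.62 in WT pristane, and 11.7 and 10.6 in the Irf8KO libraries. All 4 pristane values lay far below PBS, and the fall in WT was -1.41 ± 0.21 on the log2 scale (adjusted p = 0.0388), while that in Irf8KO, -0.90 ± 0.21, did not pass (adjusted p = 0.0771). Between the pristane groups Rpa1 differed by 0.51 ± 0.17 (adjusted p = 0.222). Rpa2, the middle subunit, stood at 9.69 FPKM with PBS, 4.30 and 2.34 in WT pristane, and 7.79 and 7.36 in the Irf8KO libraries (1.03 ± 0.30 between pristane groups, adjusted p = 0.192). Rpa2 was also lower than PBS in all 4, with the Irf8KO libraries nearer to it.

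Okazaki fragment maturation split. Fen1, the flap endonuclease, stood at 10.6 FPKM with PBS, 8.71 and 13.5 in WT pristane, and 11.1 and 9.29 in the Irf8KO libraries, with the Irf8KO values inside the WT pristane range (log2 change -0.09 ± 0.28). Lig1, the ligase that seals the fragments, stood at 2.89 FPKM with PBS, 5.06 and 2.68 in WT pristane, and 7.46 and 6.10 in the Irf8KO libraries (0.71 ± 0.33, adjusted p = 0.324). The WT pristane pair differed more from each other than WT pristane 1 did from Irf8KO pristane 2.

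Deoxynucleotide supply held the widest differences. All 5 genes were higher in both Irf8KO than in both WT pristane libraries, with a median log2 change of 1.86, the highest of the 10 roles. Rrm2 encodes the small subunit of ribonucleotide reductase, made in S phase and destroyed afterwards. It stood at 2.32 FPKM with PBS, 2.81 and 2.17 in WT pristane, and 12.8 and 14.6 in the Irf8KO libraries. The PBS value fell between those of WT pristane and the Irf8KO libraries stood alone, with a ratio of mean FPKM of 5.50 over WT pristane and a log2 change of 2.08 ± 0.22 (95% interval 1.47 to 2.68, adjusted p = 0.0612). Against PBS, Rrm2 rose by 2.14 ± 0.27 (adjusted p = 0.0371). Tk1, the thymidine kinase of S phase, stood at 5.44 FPKM with PBS, 2.81 and 2.46 in WT pristane, and 12.4 and 13.9 in the Irf8KO libraries. Here WT pristane lay below PBS as well as below Irf8KO, and between the pristane groups the ratio of mean FPKM was 4.98 and the log2 change 1.96 ± 0.20 (adjusted p = 0.0586). Rrm2 and Tk1 passed in 3 of 14 alternative fits, with adjusted p-values from 0.0105 to 0.449 and from 0.0108 to 0.444.

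**Figure D3:**
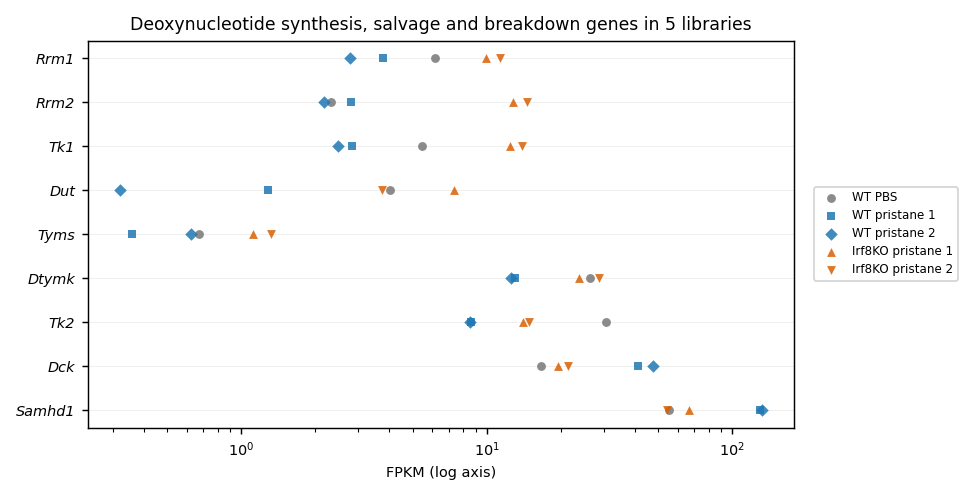
FPKM on a log axis of the 5 deoxynucleotide supply genes and of Dtymk, Tk2, Dck and Samhd1, with 1 marker per library as in the plot of all 48 genes. Rrm2 and Tk1 show the Irf8KO libraries alone at the right, and Dck and Samhd1 show the WT pristane libraries there.

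Rrm1, the large reductase subunit, which is more stable than Rrm2 through the cycle, stood at 6.17 FPKM with PBS, 3.79 and 2.78 in WT pristane, and 9.90 and 11.3 in the Irf8KO libraries (1.44 ± 0.23, adjusted p = 0.106). Dut, which removes dUTP so that uracil stays out of DNA, stood at 4.04 FPKM with PBS, 1.29 and 0.320 in WT pristane, and 7.33 and 3.76 in the Irf8KO libraries (1.86 ± 0.44, adjusted p = 0.156). Its replicates were uneven in both groups, and Irf8KO pristane 2 lay below PBS. Tyms, which makes dTMP, was the rarest by mean FPKM, though Dut was lower in WT pristane 2. It ran from 0.359 to 0.674 FPKM in the WT libraries and stood at 1.12 and 1.32 in Irf8KO. The balance of the reductase transcripts differed too: Rrm2 was below Rrm1 in FPKM in all 3 WT libraries and above Rrm1 in both Irf8KO libraries.

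Behind the fork, Uhrf1 recruits the methyltransferase that copies CpG methylation onto the new strand. It stood at 2.65 FPKM with PBS, 2.01 and 2.00 in WT pristane, and 4.53 and 6.06 in the Irf8KO libraries (1.06 ± 0.23, adjusted p = 0.139), where both values exceeded the other 3. Chaf1b, a subunit of the chromatin assembly factor that places new histones, stood at 2.47 FPKM with PBS, 2.89 and 3.71 in WT pristane, and 7.26 and 4.66 in the Irf8KO libraries (0.67 ± 0.29, adjusted p = 0.296). Its partner Chaf1a overlapped between the pristane groups. Of the drivers of S phase entry, E2f1 stood at 1.65 FPKM with PBS, 4.39 and 2.08 in WT pristane, and 4.002 and 3.31 in the Irf8KO libraries, and both Irf8KO values lay within the WT pristane range. Ccne1, a cyclin partner of Cdk2, stood at 2.40 FPKM with PBS, 1.54 and 1.14 in WT pristane, and 1.63 and 2.03 in the Irf8KO libraries (0.28 ± 0.21, adjusted p = 0.506). Neither of these genes set the groups as far apart as Rrm2 or Gmnn did, and Ccne2 stayed under 0.7 FPKM in every library.

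**Figure D4:**
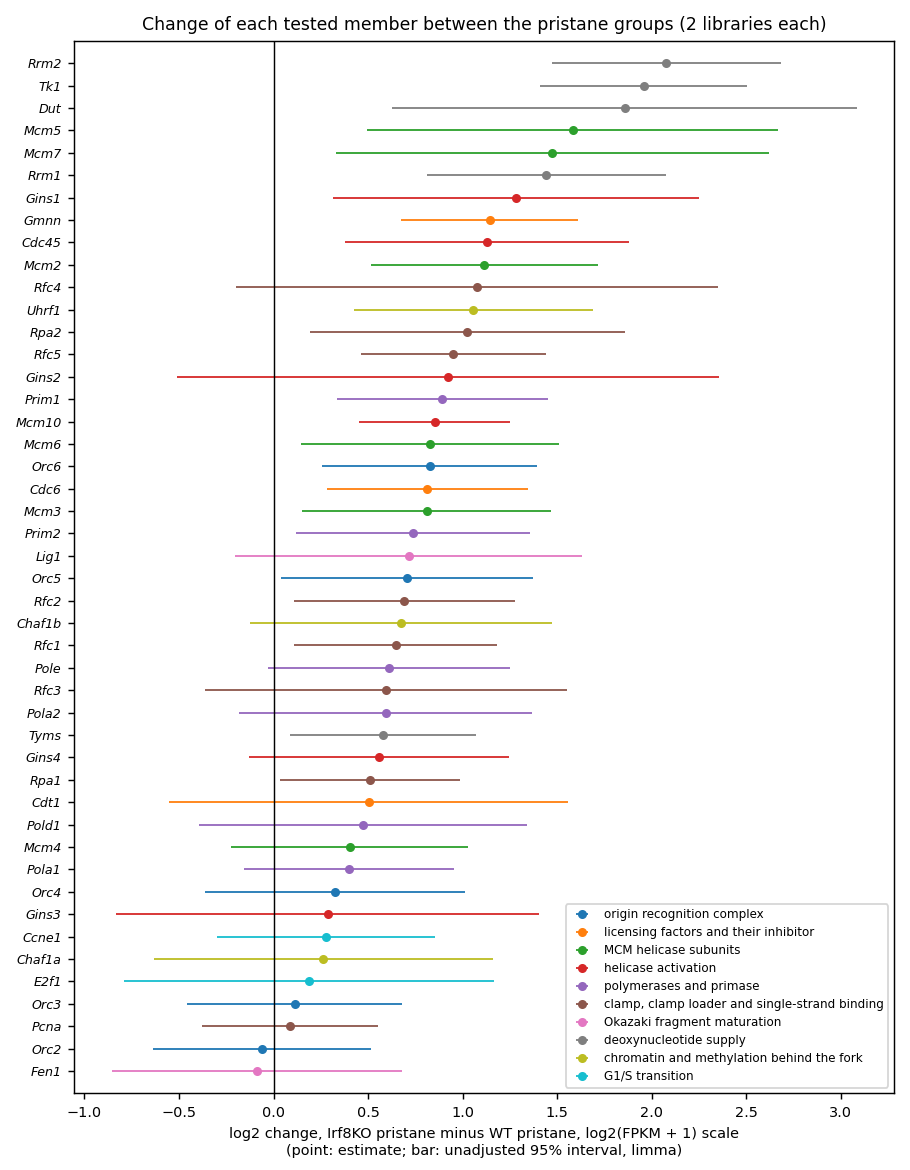
Log2 change, Irf8KO pristane minus WT pristane, of the 46 tested members in order of size, with bars for the unadjusted 95% interval and colours for roles. Rrm2 (2.08) and Tk1 (1.96) lie at the top, and Orc2 and Fen1 are the only estimates below 0.

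WT pristane against PBS compared normal mice with and without the oil. Sex-linked transcripts differed there too, with Eif2s3y at 0 FPKM with PBS and at 12.9 and 0 in WT pristane. The oil and such differences cannot be fully told apart in this comparison. Irf8KO pristane against PBS uses the same WT PBS library, so genotype, oil and sex-linked differences cannot be told apart in it. In WT, 0 of 46 members passed as higher and only Rpa1 as lower (0% and 2.17%, against 5.18% and 5.46% of all genes tested). At an unadjusted p under 0.05 the counts were 0 higher and 8 lower (0% and 17.4%, against 15.9% and 17.8%), the lower share being near the background. The PBS library was higher than both WT pristane libraries in 28 of 48 members and lower in 9, against 43.3% and 30.6% of genes above 0. The members' median log2 change was -0.35, against -0.07 over all genes, and it was above 0 in 14 of 46, against 46.9%. In Irf8KO, Gmnn and Rrm2 passed as higher and 0 members as lower (4.35% and 0%, against 3.81% and 4.72% of all genes). The higher share was near the background. Unadjusted, 10 were higher and 1 lower (21.7% and 2.17%, against 15.6% and 18.1%). Cdc6 and Mcm10, tested because they were high in Irf8KO, are among the 10. The log2 change was above 0 in 35 of 46, against 47.3%, and the median was 0.42 against -0.05. Both Irf8KO libraries stood above the other 3 in 29 of 48 members, against 12.9% of all genes. Each of these calls was lost when any 1 of the 4 pristane libraries was left out, as were the calls of all genes: the adjusted p was then 0.0857 to 0.148 for Rpa1, 0.0686 to 0.200 for Gmnn and 0.0684 to 0.192 for Rrm2. Over all 11 alternatives it ran from 0.0237 to 0.148 for Rpa1, from 0.0222 to 0.200 for Gmnn and from 0.0197 to 0.192 for Rrm2, each passing in 7.

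Other genes of the same pathways did not all show this order. Of 28 further fork and origin genes, 20 were tested and 0 passed in any comparison, with 14 above and 6 below WT pristane in both Irf8KO libraries (50% and 21.4%, against 22.0% and 22.7% of all genes above 0). The unadjusted counts among the 20 were 8 higher and 1 lower for Irf8KO against WT pristane (40% and 5%, against 10.5% and 10.1% of all genes). Chtf18 and Dscc1, among the 8, reached 1 FPKM only in Irf8KO libraries. Against PBS the unadjusted counts were 2 and 4 in WT pristane (10% and 20%, against 15.9% and 17.8%). In Irf8KO they were 2 and 2 (10% each, against 15.6% and 18.1%), and both pairs were near or under the background. Pold4, the small subunit of polymerase delta, stood at 39.1 FPKM with PBS, 27.0 and 19.3 in WT pristane, and 40.6 and 36.9 in the Irf8KO libraries. Rnaseh2c, of the enzyme that removes ribonucleotides from DNA, stood at 32.6, then 34.9 and 20.0, then 51.8 and 30.2, with the pristane groups overlapping. Chosen after their values were seen, Rpa3 followed the larger RPA subunits at 20.6, then 9.65 and 6.16, then 31.6 and 22.0 FPKM, and Dna2, a nuclease-helicase, ran the other way at 1.03, then 5.31 and 4.80, then 1.86 and 1.01. Among 7 further S phase chromatin genes 0 passed in any comparison. Against 22.0% of genes above 0, 6 of the 7 were higher in Irf8KO than in WT pristane without overlap. These included Cenpa, the centromeric histone, at 5.06, then 4.97 and 3.70, then 12.1 and 12.6 FPKM. Slbp, the histone mRNA binding protein, was another, at 12.2, then 15.2 and 16.0, then 19.9 and 17.3. With equal sums of FPKM 4 of the 7 kept this order, against 15.0% of genes above 0, and Slbp did not. Of the 7, 1 was then lower in both Irf8KO libraries.

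Nucleotide salvage, breakdown and folate genes held some that rose and some that fell. Of 19 tested genes in a list of 20, 3 rose and 3 fell past the threshold from PBS to WT pristane. The shares of all genes were 5.18% and 5.46%, and 0 of the 19 passed in the other comparisons. Both Irf8KO libraries stood above both WT pristane libraries in 8 of 20 and below in 5, against 22.0% and 22.7% of genes above 0. Dck, the kinase that salvages deoxycytidine outside S phase as well, stood at 16.6 FPKM with PBS, 41.2 and 47.7 in WT pristane, and 19.5 and 21.5 in the Irf8KO libraries. Samhd1, which degrades deoxynucleotides and is induced by interferon in some myeloid cells, stood at 55.2, then 129.4 and 132.0, then 66.3 and 54.2 FPKM. Both rose in WT pristane, by 1.36 (adjusted p = 0.0399) and 1.23 (adjusted p = 0.0462). The Irf8KO libraries stayed near PBS, and the pristane groups differed by -1.08 (adjusted p = 0.105) and -1.11 (adjusted p = 0.103). Umps, which completes UMP synthesis, rose by 1.33 (adjusted p = 0.0462). Tk2, the mitochondrial thymidine kinase, fell in WT pristane by 1.72 on the log2 scale (adjusted p = 0.0299), from 30.5 FPKM to 8.59 and 8.51, with 14.0 and 14.8 in the Irf8KO libraries. The folate enzymes Shmt1 and Mthfd1 fell by 2.06 (adjusted p = 0.0466) and by 1.46 (adjusted p = 0.0494). Dtymk, which phosphorylates dTMP and was picked after its values were seen, stood at 26.4, then 12.98 and 12.5, then 23.7 and 28.8 FPKM. Nme1 and Nme2, the abundant kinases that finish nucleotide triphosphates, ran from 81.0 to 118.9 and from 297.0 to 412.3 FPKM.

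Of 31 regulators of S phase entry 24 were tested, and few passed against PBS. In WT pristane 1 rose and 1 fell (4.17% each, against 5.18% and 5.46% of all genes), and in Irf8KO 2 rose and 1 fell (8.33% and 4.17%, against 3.81% and 4.72%), shares that rest on 1 or 2 genes. Cdk6, a kinase that phosphorylates the retinoblastoma protein, rose in both pristane groups, by 2.61 in WT (adjusted p = 0.0304) and 2.53 in Irf8KO (adjusted p = 0.0359), from 4.74 FPKM to 36.8 and 31.3 and to 26.6 and 38.8. Its partner Ccnd3 rose in Irf8KO by 1.98 (adjusted p = 0.0480), and Rb1, which holds E2F in check, fell there by 1.65 (adjusted p = 0.0430). Cdkn2c, an inhibitor of Cdk4 and Cdk6, fell in WT pristane by 1.92 (adjusted p = 0.0449), from 6.57 FPKM to 0.808 and 1.20, and stood at 4.12 and 5.88 in the Irf8KO libraries. Cdkn1a, the inhibitor p21, was at 54.9 FPKM with PBS and from 92.7 to 172.4 in the pristane libraries, with no call. Between the pristane groups 0 of 24 passed. At an unadjusted p under 0.05, 8 were higher and 1 lower, against 10.5% and 10.1% of all genes. E2f8 and Cdc25a, among the 8, reached 1 FPKM only in Irf8KO libraries. Without overlap 15 of 31 were higher and 2 lower, against 22.0% and 22.7% of genes above 0.

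All 12 mitosis genes were higher in both Irf8KO libraries than in the other 3, an order found in 12.9% of genes above 0. Their median log2 change over WT pristane was 1.53. By limma 0 of 12 passed between the pristane groups, where 12 were higher at an unadjusted p under 0.05, against 10.5% of all genes. In Irf8KO against PBS 7 passed as higher, against 3.81% of all genes. Of the 12, 5 reached 1 FPKM only in the Irf8KO libraries, among them Ccnb1 and Mki67, and were tested because they were high there, so these counts are a description and no support. Ccnb1, the cyclin of mitotic entry, stood at 0.787 FPKM with PBS, 0.733 and 0.467 in WT pristane, and 11.5 and 10.001 in the Irf8KO libraries (log2 change 2.88 over WT pristane and 2.71 over PBS). Cdk1, its kinase, stood at 1.39, then 0.903 and 1.22, then 8.58 and 6.44 FPKM, and rose by 1.82 against PBS (adjusted p = 0.0465). Top2a, which untangles chromosomes, stood at 2.79, then 1.82 and 1.32, then 6.16 and 5.79. Mki67, the proliferation antigen Ki-67, was low at 0.840, then 0.447 and 0.569, then 1.72 and 1.26. Whether the members differed less than the mitosis genes was not tested.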

How the data were processed

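RNA of peritoneal lavage cells was sequenced by Smart-seq2 in 5 libraries. The deposited values were used as FPKM, since they were not whole numbers although the table is called a count table. BWA, TopHat2 2.0.10, Cufflinks 2.2.1 and Cuffnorm are named in the submitters' processing notes, with no role. The genome build, annotation and strand setting are not stated in the labels or headers. Of 22815 symbols 27 had become dates and were not named.

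A gene was tested if any library reached 1 FPKM, which left 11117. The test was the trend form of limma 3.58.1, run in R 4.3.3 on all 5 libraries together, with a mean for each of the 3 groups of log2(FPKM + 1) values and Benjamini-Hochberg adjustment over all genes tested. An adjusted p under 0.05 counted as passed, and tests were two-sided. Residual degrees of freedom were 2 and prior degrees 1.99. A change is a difference of means on that log2 scale, with its SE, and understates the change of low genes. An exact 0 may be a failed estimate. Depth was estimated from the products of low values (under 0.3 FPKM) and transcript length for genes with 1 transcript of at least 1000 bases, of which 70.8% to 81.5% lay within 0.15 of a whole number of fragments. Promoters were RefSeq's. The fit was checked on simulated data.

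The members, pathway lists, markers and tests were chosen with earlier results of these data known. All 5 values are given for the 2 members of each role with the smallest p between pristane groups, the most abundant 1, and those past the threshold in any comparison. Cdt1, Rrm1 and Dut were added after their values were seen. Of the other lists, up to 6 genes past the threshold and the 2 most abundant are named, and of mitosis genes Mki67, Top2a, Ccnb1 and Cdk1. Alternatives were pseudocounts of 0.25 and 5 FPKM, no filter, a mean of at least 5 FPKM, equal sums of FPKM, median-ratio scaling, robust variance moderation, the 4 pristane libraries alone, the replicate number as a block, and leaving out each pristane library.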

Additional observations from a re-analysis of the deposited data

How the results depend on the processing

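Among the 48 genes, the count past the threshold for Irf8KO against WT pristane was 2 with a mean of at least 5 FPKM and 2 with robust variance moderation (Rrm2 and Tk1 both times). It was 4 in the 4 pristane libraries with the filter set on those (Gmnn, Rrm1, Rrm2 and Tk1), a setting chosen after seeing the data. The background over all genes moved as well, from 3 to 242, 264 and 431 in these settings, to 5 with a pseudocount of 5 FPKM, and to 0 with no filter, with equal sums of FPKM and under the replicate block. With a pseudocount of 5 FPKM the members' median fell to 0.43 for Irf8KO against WT pristane, -0.15 for WT pristane against PBS and 0.22 for Irf8KO against PBS, the larger pseudocount shrinking changes of low genes by construction. Rfc5 also passed against PBS with a mean of at least 5 FPKM (adjusted p = 0.0469, with 0.0469 to 0.248 over its 11 alternatives).

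Leaving out each pristane library in turn gave 0 members and 0 genes past the limma threshold in each comparison, and between the pristane groups 1022 to 2517 genes, 7 to 22 of them members, had a p under 0.05 before adjustment. The members' medians then ran from 0.65 to 0.82, from -0.35 to -0.25 and from 0.42 to 0.50 in the 3 comparisons. Without 1 library a group holds 1 sample, whose spread was taken from the others.

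Directions turned for genes with small changes. Between the pristane groups these were Pcna (-0.14 with equal sums, and -0.019 to 0.20 with a library left out), Fen1 (-0.38 to 0.20) and E2f1 (-0.22 to 0.59). Fen1 turned at 0.20 without WT pristane 2 and 0.029 without Irf8KO pristane 2. For WT pristane against PBS they were Cdc6 (-0.22 to 0.017), Cdc45 (-0.23 to 0.26), Prim2 (0.051 with median-ratio scaling, -0.17 to 0.13), Fen1 (-0.26 to 0.32), Lig1 (-0.079 to 0.64) and Rrm2 (-0.067 to 0.20). For Irf8KO against PBS they were Orc5 (-0.12), Mcm2 (-0.13) and Gins4 (-0.21, and -0.26 to 0.28 with a library left out), all with equal sums, and Fen1 (0.020 with median-ratio scaling, -0.17 to 0.063). The cause was not tested. Replicate numbers are shared between the pristane groups, but the differences between numbers correlated at only 0.04 across 11117 genes, so they were not taken to pair the libraries. With the number as a block 0 members and 0 of all genes passed by limma, with 24 members and 2085 genes at an unadjusted p under 0.05. For the PBS comparisons no paired analysis was possible because that group has 1 library. No filter, a mean of at least 5 FPKM and the main filter gave 372 and 901, 808 and 368, and 576 and 607 genes higher and lower in WT pristane against PBS.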
